A study of Mus musculus with 12 samples.

Results

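Genes of the cytochromes P450 and of the other drug-metabolising enzyme families were followed in the small intestine of 6 villinCre;Shp2fl mutant mice and 6 control mice. The members were the rows of the deposited table whose gene symbol starts with Cyp, Ugt, Sult, Adh, Aldh or Fmo and a digit, without Cyp51, which belongs to cholesterol synthesis. This rule took 129 of 18090 rows and used no measured value. The mutants carried a floxed Shp2 allele (the gene is Ptpn11, a tyrosine phosphatase that relays receptor signals) and a Cre driven by the villin promoter, which is active in the intestinal epithelium, so that muscle, stroma, nerves and blood cells keep the gene. The genotype of the controls is not given beyond the word control. All 12 mice were labelled P6, had a mixed C57/BL6;129Ola background and gave total RNA of a whole piece of proximal small intestine. In such tissue, fewer cells of a type and less RNA per cell cannot be told apart.

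Drug-metabolising enzymes are grouped by the step they carry out. In the oxidation step, phase I, cytochromes P450, flavin-containing monooxygenases, alcohol dehydrogenases and aldehyde dehydrogenases oxidise foreign chemicals as well as fatty acids, sterols, retinoids and bile acid precursors. In the conjugation step, phase II, UDP-glucuronosyltransferases and sulfotransferases attach a sugar acid or a sulfate, which makes the products easier to excrete. The small intestine is the first organ to meet many swallowed compounds, and its absorptive cells hold a set of these enzymes that differs from that of the liver.

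Levels are deposited array intensities in arbitrary units, which were background-subtracted, so that values around 0 mean no signal above background. The size of the most negative value in the table, 27.8, was used as a noise limit. Of the 129 members, 45 lay above it in all 12 mice, 21 in some mice and 63 in none. The shares were 34.9% for all mice and 48.8% for none, against 48.5% and 38.2% over all 18090 rows. Close to the boundary, Cyp2c70 stayed just above the limit in every mouse with a lowest value of 30.2 in mutant 5, whereas Cyp4b1 missed it in 1 mouse, at 25.8 in control 5. Intensities of different rows come from different probes, so the level of one gene is not compared with that of another.

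The families differed in how many members gave a signal. All 4 measured Aldh1a genes, a subfamily that includes the retinaldehyde dehydrogenases that make retinoic acid, lay above the limit in every mouse, as did 14 of 19 aldehyde dehydrogenases in all. Of the 37 Cyp2 rows, 7 did so and 26 were under it in every mouse, among them all 5 Cyp2b rows and 4 of 5 Cyp2j rows. The dioxin-inducible Cyp1a1 and Cyp1a2 gave no signal in any mouse, nor did Cyp2e1, an ethanol-oxidising P450 of the liver, or Cyp7a1, the rate-limiting enzyme of bile acid synthesis. Of the 6 P450 genes of steroid hormone synthesis, 5 were at background throughout, and Cyp11a1, which starts that pathway, read 25.2 to 36.1 in mutants and 18.8 to 41.1 in controls. Cyp24a1, the enzyme that inactivates vitamin D, was around the limit, at 11.6 to 40.4 in mutants and 18.1 to 39.6 in controls. These rows at or around background were named after their values were seen. Whether a row at background reflects its gene or its probe could not be told here.

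Mutant and control mice were compared with limma on the log2 scale after an offset of 50, with Benjamini-Hochberg adjustment over all 18090 rows, and an adjusted p under 0.05 counted as a call. Of the 129 members 18 were called (14%), against 9.19% of all rows. Of these, 14 were higher in mutants (10.9% of members, against 4.71% of all rows) and 4 were lower (3.1%, against 4.48%). The median log2 difference was 0.01 over the members and -0.01 over all rows, a median that includes the 63 members with no signal. In 8 members (6.2%) the 6 mutants and the 6 controls did not overlap, against 4.69% of all rows. Mutants were the higher group in 7 of them and the lower in 1, against 2.48% and 2.21% of all rows. The number of lower members moved with single mice: it was 7 without mutant 4 and 2 without mutant 5, mutant 6 or control 3. With values floored at the noise limit and neither background correction nor offset, 8 members were called higher and 2 lower. The largest log2 differences among called members belonged to Cyp4f14, Fmo1, Ugt2b36 and Aldh1l1, all higher in mutants.

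**Figure D1:**
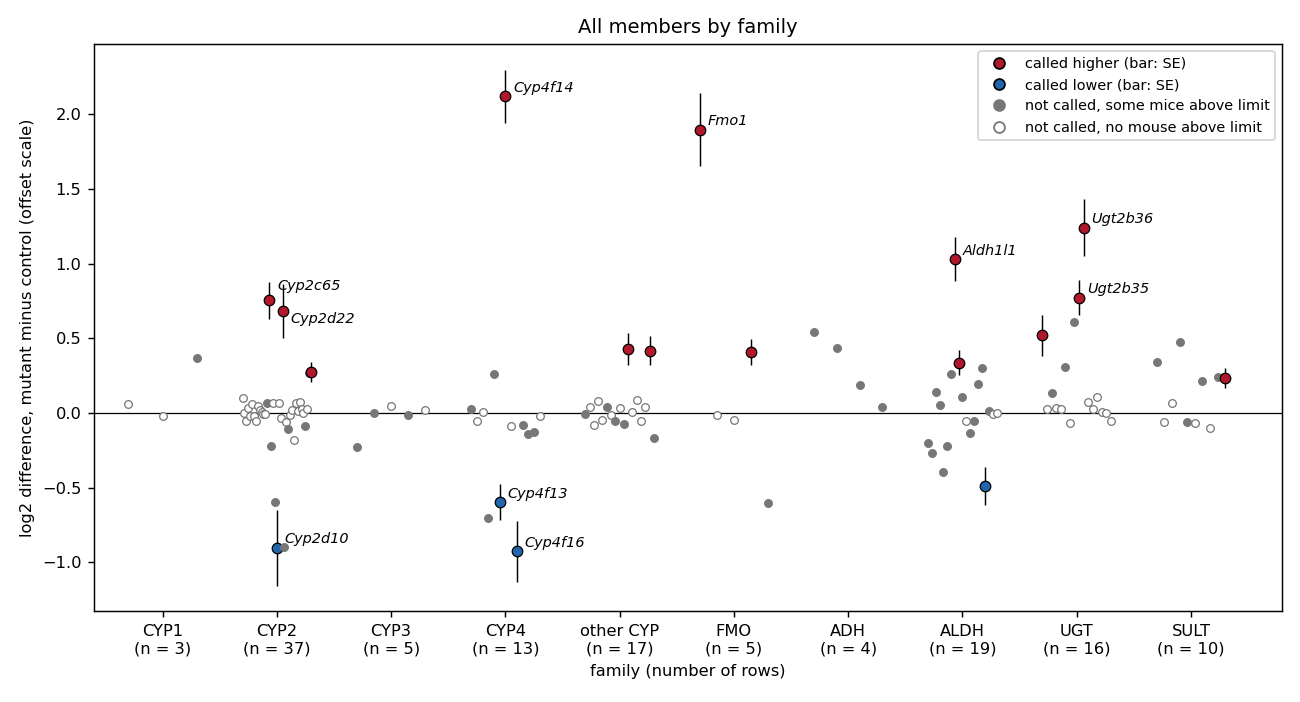
Each point is 1 of the 129 members, placed by family, with the log2 difference (mutant minus control, offset scale) on the vertical axis and the SE as a bar on called members. Most points sit near 0, and Cyp4f14 (2.12) and Fmo1 (1.90) stand at the top.

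Within the Cyp4f subfamily, P450 enzymes that hydroxylate fatty acids and lipid mediators such as leukotrienes, neighbouring genes went opposite ways. Cyp4f14, a leukotriene hydroxylase, had a lowest intensity of 705.1, a median of 954.05 and a highest of 1289.9 in mutants, against 110.4, 149.2 and 233.3 in controls. Every mutant was above every control, and the means were 5.81-fold apart (log2 difference 2.12, SE 0.18, limma adjusted p = 5.97e-06). Cyp4f13, the next protein-coding gene in the RefSeq order on chromosome 17, had 1053.0, 1553.4 and 1960.1 in mutants, against 1963.6, 2380.4 and 2675.6 in controls. Here every mutant was below every control, by a narrow gap between the highest mutant and the lowest control, and the mean was 1.52-fold lower (log2 difference -0.60, SE 0.12, limma adjusted p = 0.00626). Cyp4f16 lies on the other side of Cyp4f14 in the same cluster, with Cyp4f15 and further protein-coding genes between them. Cyp4f16 had 930.5, 1450.1 and 2579.7 in mutants, against 2187.9, 2663.25 and 4115.1 in controls. Its mutant mean was 1.90-fold lower (log2 difference -0.93, SE 0.20, limma adjusted p = 0.0114), and mutant 4 alone reached into the control range. Of the other 3 measured Cyp4f rows, Cyp4f15 was under the limit in all mice and Cyp4f39 and Cyp4f18 in some, and none was called. Whether the probes of these related genes bind each other's transcripts could not be told from the table.

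The start regions of the 3 Cyp4f genes are shown because the genes lie in 1 cluster and changed in different directions. They are RefSeq promoter windows of build GRCm38.p6, from 250 bases before to 50 after the annotated start, and the first listed window was used for Cyp4f14, which has 4. Cyp4f14 lies at chr17:32917307-32917606 on the minus strand, Cyp4f13 at chr17:32947312-32947611 on the minus strand and Cyp4f16 at chr17:32536307-32536606 on the plus strand. Capitals mark the CCAAT box, searched as CCAAT on both strands and read here on the opposite strand as ATTGG.
Cyp4f14: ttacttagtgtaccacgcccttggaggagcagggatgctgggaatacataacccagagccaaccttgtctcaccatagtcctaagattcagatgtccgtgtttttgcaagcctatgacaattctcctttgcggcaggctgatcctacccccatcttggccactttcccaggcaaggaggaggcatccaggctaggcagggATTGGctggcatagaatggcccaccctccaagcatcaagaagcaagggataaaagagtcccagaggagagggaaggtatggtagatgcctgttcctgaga
Cyp4f13: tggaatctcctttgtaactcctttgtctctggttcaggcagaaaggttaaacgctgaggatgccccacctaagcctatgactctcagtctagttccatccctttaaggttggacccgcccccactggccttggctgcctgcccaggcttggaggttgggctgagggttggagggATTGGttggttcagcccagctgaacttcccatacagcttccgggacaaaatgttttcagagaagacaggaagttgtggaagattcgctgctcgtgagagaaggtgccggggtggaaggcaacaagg
Cyp4f16: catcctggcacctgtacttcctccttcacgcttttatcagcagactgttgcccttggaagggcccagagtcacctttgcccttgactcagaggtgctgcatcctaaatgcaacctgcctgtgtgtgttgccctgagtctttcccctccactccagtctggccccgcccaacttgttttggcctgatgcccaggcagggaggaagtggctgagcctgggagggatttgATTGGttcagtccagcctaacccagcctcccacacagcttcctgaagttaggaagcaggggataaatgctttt
Each window held 1 such match, which began at base -50 in Cyp4f14, -76 in Cyp4f13 and -23 in Cyp4f16, counted from the annotated start. The match does not tell the 3 genes apart, and 37.9% of 27025 RefSeq promoter windows hold it. The longest run of identical letters was 11 bases between Cyp4f14 and Cyp4f13 and 9 bases between either of them and Cyp4f16.

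The remaining Cyp4 rows were not called. Cyp4a31, of the fatty acid hydroxylases that follow the lipid receptor Ppara, had 44.5, 102.0 and 245.0 in mutants, against 135.8, 182.45 and 444.0 in controls (limma adjusted p = 0.125), and it is named here after its values were seen. It passed without mutant 4 (0.0392) and with the replicate number as a block (0.0129).

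**Figure D2:**
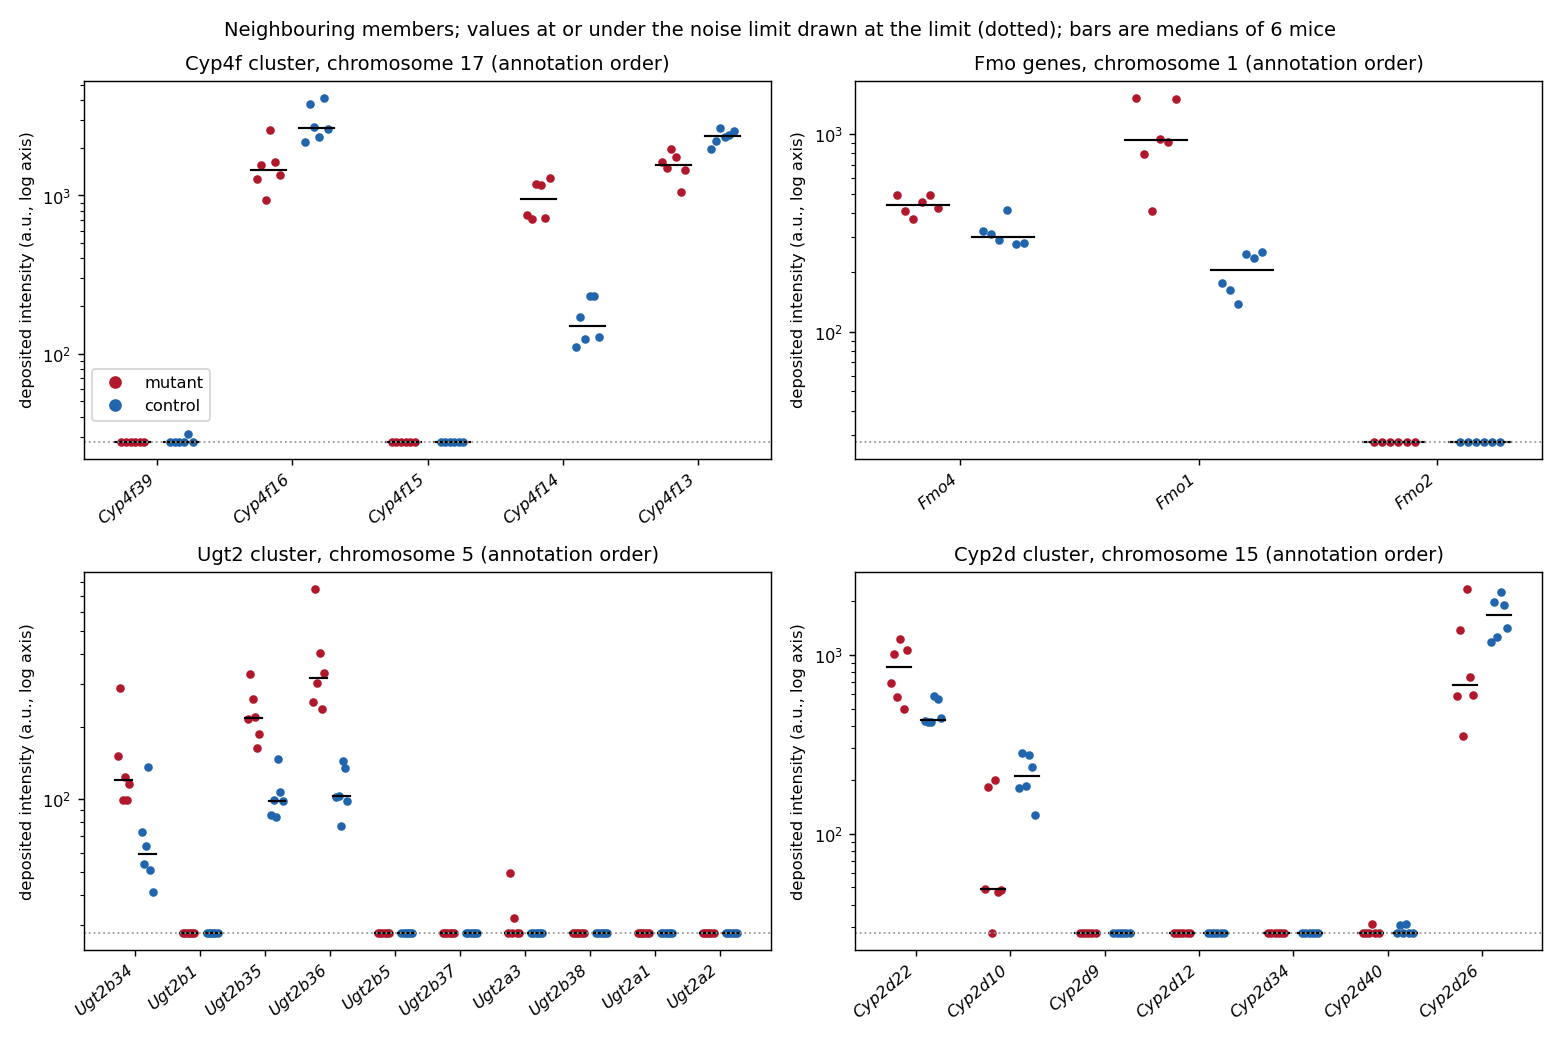
Points are deposited intensities (log axis) of single mice, mutants in red left of controls in blue, for genes of 4 clusters in annotation order, with medians as bars. Values at or under the noise limit are drawn at the limit. Cyp4f14 is higher and Cyp4f13 and Cyp4f16 lower in mutants, and Ugt2b34, Ugt2b35 and Ugt2b36 are the Ugt2 rows above the limit in every mouse.

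Flavin-containing monooxygenases oxygenate nitrogen and sulfur atoms of drugs and food compounds. Fmo1 had a lowest intensity of 406.6, a median of 930.7 and a highest of 1517.4 in mutants, against 138.2, 206.25 and 254.3 in controls. All mutants were above all controls, although the mutants spread widely, and the means were 5.01-fold apart (log2 difference 1.90, SE 0.24, limma adjusted p = 0.000309). Fmo4, which lies beside Fmo1 on chromosome 1, had 373.5, 438.7 and 494.2 in mutants, against 277.0, 302.4 and 411.4 in controls. Its mean was 1.40-fold higher (log2 difference 0.41, SE 0.09, limma adjusted p = 0.00867), and control 4 alone lay within the mutant range. Fmo2, which lies next to Fmo1 on the other side, was under the noise limit in all 12 mice. Fmo5, on another chromosome, had 703.4, 1090.05 and 1776.2 in mutants, against 1295.0, 1698.15 and 2440.7 in controls. That difference did not pass (log2 difference -0.61, SE 0.19, limma adjusted p = 0.0688), and it passed when mutant 4 (0.018) or control 4 (0.0499) was left out, with sex as a covariate (0.0208), with array weights (0.0334) and with dim rows removed (0.0437). Mutant 4 held the highest mutant value of Fmo5.

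**Figure D3:**
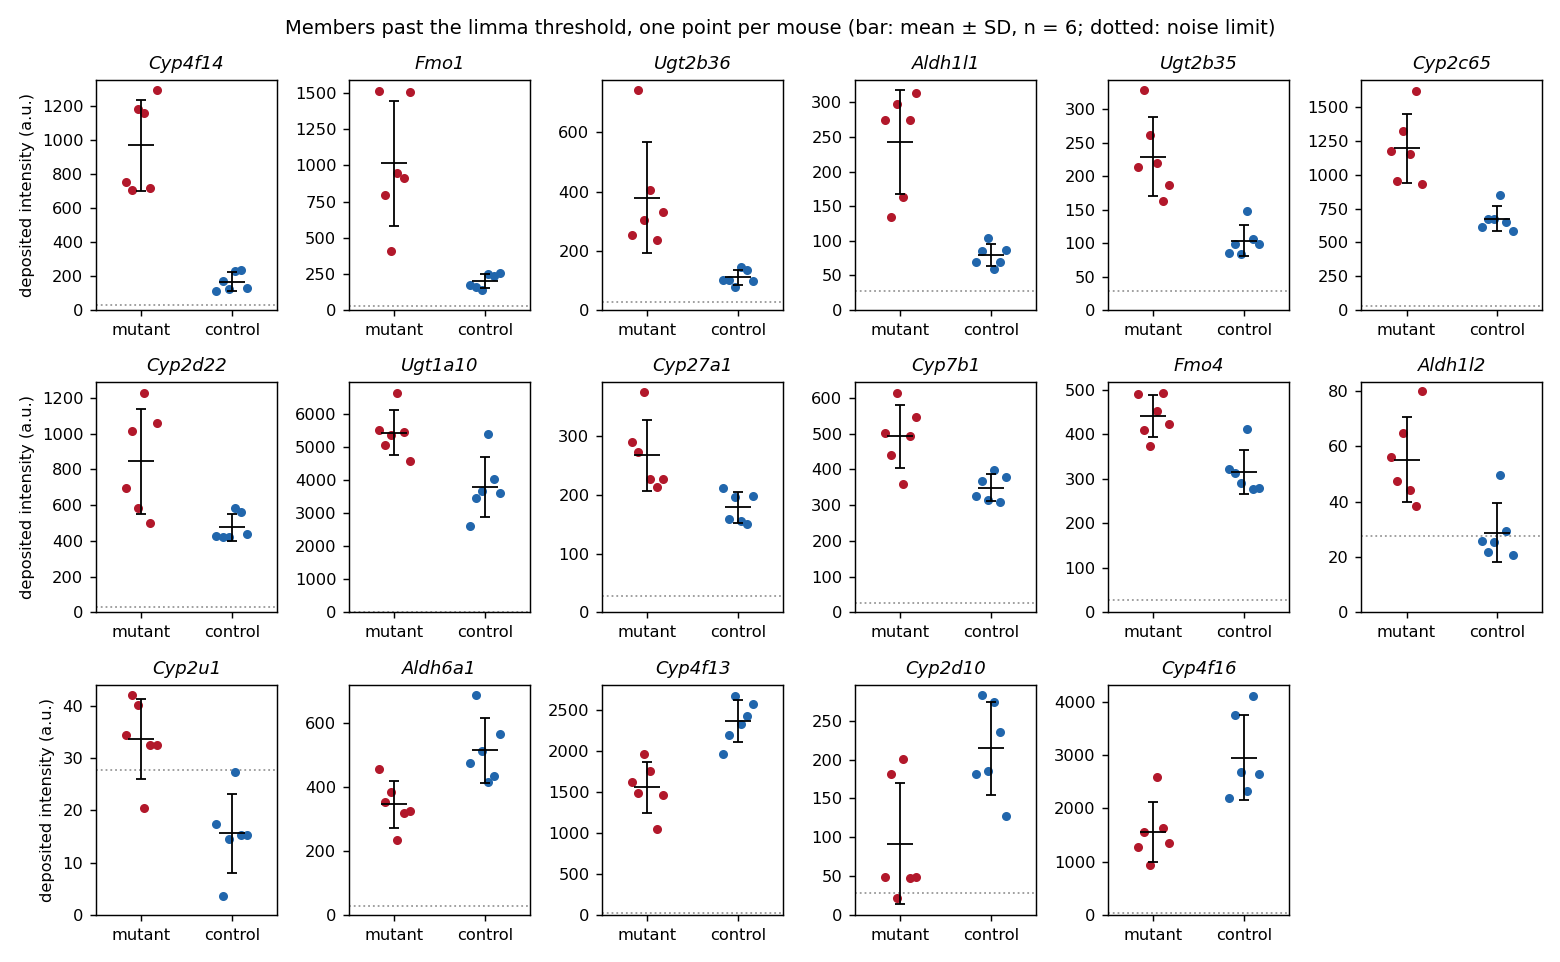
Deposited intensity (arbitrary units) of the 17 called members with a mean above the noise limit in at least 1 group, 1 point per mouse, mutants left of controls, with mean and SD (n = 6 each) and the limit as a dotted line. The groups do not overlap for Cyp4f14, Fmo1, Ugt2b36, Aldh1l1, Ugt2b35, Cyp2c65, Cyp27a1 and Cyp4f13.

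Among P450 enzymes of the Cyp2 family, 3 of 37 rows were higher in mutants (8.11%, against 4.71% of all rows) and 1 was lower (2.7%, against 4.48%). Cyp2c65, a P450 of the intestine that acts on arachidonic acid, had a lowest intensity of 930.6, a median of 1165.45 and a highest of 1622.2 in mutants, against 584.9, 661.1 and 847.9 in controls. The groups did not overlap, and the mean was 1.77-fold higher (log2 difference 0.75, SE 0.12, limma adjusted p = 0.00163). None of the other 10 Cyp2c rows was called, and 7 of the 11 were under the limit in all mice. Cyp2c67, expressed in every mouse and named after its values were seen, read 410.3 ± 82.0 in mutants and 482.5 ± 25.1 in controls (SD, n = 6 each, limma adjusted p = 0.2).

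The start region of Cyp2c65 (RefSeq, GRCm38.p6, chr19:39060756-39061055, plus strand) is shown because it holds an exact match to a binding site of Hnf4a, a nuclear receptor of liver and gut epithelium. Capitals mark CAAAGTCCA, searched on both strands.
Cyp2c65: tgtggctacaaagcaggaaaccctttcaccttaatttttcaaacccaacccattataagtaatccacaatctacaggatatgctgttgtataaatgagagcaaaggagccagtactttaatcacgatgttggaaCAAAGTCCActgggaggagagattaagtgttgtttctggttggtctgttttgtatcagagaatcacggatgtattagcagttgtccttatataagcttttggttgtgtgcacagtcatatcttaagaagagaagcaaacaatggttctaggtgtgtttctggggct
The match begins at base -116 from the annotated start. Among the 101 members with a RefSeq window, 8 held these letters (7.92%), and among all 27025 windows 129 did (0.477%). The 8 were Cyp2c40, Cyp2c65, Cyp2c67, Cyp2c68, Cyp2c70, Cyp3a11, Cyp3a16 and Cyp8b1, so that 5 belong to the Cyp2c subfamily, whose genes arose by duplication and share sequence. Of these 8 genes, 3 gave a signal in all mice, 2 in some and 3 in none, and Cyp2c65 was the called one. Other motifs were searched in the same windows, on both strands. The TATA box TATAAA was in 31.7% of members and 14.2% of all windows. The nuclear receptor core AGGTCA was in 25.7% and 16%, the aryl hydrocarbon receptor core GCGTG in 22.8% and 32.5%, and the Hnf1 core GTTAAT in 10.9% and 7.2%. All motifs were chosen after values were seen. The Hnf4a row itself, looked at afterwards, read 2853 ± 338 in mutants and 3269 ± 521 in controls (SD, n = 6 each, limma adjusted p = 0.287).

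The Cyp2d cluster held calls of both directions. Cyp2d22, the first Cyp2d gene in the RefSeq order, had 497.8, 852.55 and 1227.1 in mutants, against 420.5, 433.7 and 584.6 in controls. The mean was 1.77-fold higher with overlap between the groups (log2 difference 0.68, SE 0.18, limma adjusted p = 0.0294), and the call ended without mutant 2, mutant 6 or control 1, 2, 3 or 6 (adjusted p 0.0553 to 0.0677) and with the floored values (0.0855). Cyp2d10 had 22.1, 48.75 and 200.2 in mutants, against 127.4, 210.0 and 282.9 in controls. Mutants 2 and 4, at 181.9 and 200.2, lay inside the control range, and the other 4 mutants at 22.1 to 49.1 lay under it. Its mean was 2.34-fold lower (log2 difference -0.90, SE 0.25, limma adjusted p = 0.0381), a call that ended without mutant 1, 3, 5 or 6 or control 1, 2, 3, 4 or 5 (adjusted p 0.0525 to 0.084), without control 4 and mutant 1 together (0.129), with trended and robust variances (0.0744) and with the floored values (0.107). Cyp2d26 had 350.6, 675.0 and 2319.3 in mutants, against 1171.8, 1662.35 and 2242.9 in controls, and was not called (limma adjusted p = 0.128). Mutant 4 was above every control, mutant 2 lay among the controls and the other 4 mutants were under them. The row passed without mutant 4 (0.0133) and with the replicate number as a block (0.0183). The Cyp2d genes are close relatives, and reads of one by the probe of another were not tested. Cyp2u1, a fatty acid hydroxylase, was near the limit, at 20.4, 33.45 and 42.1 in mutants, against 3.7, 15.25 and 27.3 in controls. No control and 5 mutants were above the limit, and the groups overlapped, so no fold is given (log2 difference 0.27, SE 0.07, limma adjusted p = 0.0225). The call ended without mutant 3 (0.0538), with the floored values (0.0696) and with the replicate number as a block (0.0747).

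No Cyp3 or Cyp1 row was called. Cyp3a13, a Cyp3a enzyme of the mouse intestine, had 2916.0, 3308.45 and 5309.7 in mutants, against 3326.6, 3688.5 and 3976.2 in controls (log2 difference 0.00, SE 0.14, limma adjusted p = 0.996). The mutants spread widely on both sides of the controls, with mutants 2 and 4 above all controls, mutant 3 among them and the other 3 mutants below. Cyp3a25 read 554.0 ± 174.1 in mutants and 548.1 ± 122.1 in controls (SD, n = 6 each, limma adjusted p = 0.986). Cyp3a11, the main inducible Cyp3a enzyme of mouse liver, passed the noise limit in 2 mutants and 3 controls, with 131.4 in mutant 4 and 103.9 in control 4 as the highest values (limma adjusted p = 0.694). Cyp1b1, a P450 that metabolises oestrogens and polycyclic hydrocarbons, had 114.2, 150.25 and 228.5 in mutants, against 86.8, 106.75 and 148.8 in controls (limma adjusted p = 0.0798). It passed without mutant 4 (0.0358) or control 4 (0.0477) and with sex as a covariate (0.0406). Cyp20a1, a P450 whose substrate is not well known, read 46.6 ± 8.1 in mutants and 46.1 ± 25.9 in controls (SD, n = 6 each, limma adjusted p = 0.913).

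Both called rows among the other P450 families act on sterols. Cyp7b1, an oxysterol hydroxylase, had 359.0, 497.55 and 614.4 in mutants, against 308.2, 347.0 and 397.7 in controls. Mutant 4 lay within the control range, and the mean was 1.41-fold higher (log2 difference 0.42, SE 0.10, limma adjusted p = 0.0152). Cyp27a1, the mitochondrial sterol hydroxylase of the alternative route to bile acids, had 213.7, 250.55 and 375.0 in mutants, against 150.6, 178.25 and 212.0 in controls. The groups were separated by a narrow gap between mutant 5 and control 1, and the mean was higher, 267.8 ± 60.4 in mutants and 178.9 ± 26.5 in controls (SD, n = 6 each, log2 difference 0.43, SE 0.11, limma adjusted p = 0.0217). The call ended without control 5 (0.0519), without control 4 and mutant 1 together (0.0823) and with the floored values (0.0542). Cyp8b1, which sets the cholic acid share of bile acids, did not pass, at 12.3 ± 8.6 in mutants and 23.1 ± 9.7 in controls (SD, n = 6 each, limma adjusted p = 0.248), and is named after its values were seen.

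UDP-glucuronosyltransferases, which attach glucuronic acid to bilirubin, steroids and drugs, gave 3 higher rows of 16 and no lower one. The higher share was 18.8%, against 4.71% of all rows, and 4.48% of all rows were lower. Ugt2b36 had a lowest intensity of 237.1, a median of 318.15 and a highest of 742.1 in mutants, against 77.3, 102.55 and 144.4 in controls. The groups did not overlap, mutant 2 stood far above the other mutants, and the mean was 3.45-fold higher (log2 difference 1.24, SE 0.19, limma adjusted p = 0.00122). Ugt2b35, its direct neighbour on chromosome 5, had 163.1, 217.0 and 329.2 in mutants, against 84.4, 98.6 and 147.3 in controls, with no overlap and a mean 2.21-fold higher (log2 difference 0.77, SE 0.12, limma adjusted p = 0.00121). Ugt2b34 lies at the end of the same cluster and had 98.9, 119.55 and 290.5 in mutants, against 41.0, 59.05 and 136.2 in controls. It did not pass (log2 difference 0.61, SE 0.18, limma adjusted p = 0.0518), and control 4, at 136.2, lay within the mutant range while the other controls were under it. It passed in 6 alternatives, among them without control 4 (0.0153) and with sex as a covariate (0.0384). It is named after its values were seen. The other 4 Ugt2b rows, Ugt2b1, Ugt2b5, Ugt2b37 and Ugt2b38, were under the noise limit in all 12 mice. The Ugt2b genes are close relatives, and whether the probe of one binds the transcripts of another was not tested.

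The start regions of Ugt2b36 and Ugt2b35 are shown because the rows of these neighbours were both called higher. They are RefSeq windows of GRCm38.p6, at chr5:87092506-87092805 on the minus strand and chr5:87000610-87000909 on the plus strand. Capitals mark the longest run of letters that both share, 14 bases.
Ugt2b36: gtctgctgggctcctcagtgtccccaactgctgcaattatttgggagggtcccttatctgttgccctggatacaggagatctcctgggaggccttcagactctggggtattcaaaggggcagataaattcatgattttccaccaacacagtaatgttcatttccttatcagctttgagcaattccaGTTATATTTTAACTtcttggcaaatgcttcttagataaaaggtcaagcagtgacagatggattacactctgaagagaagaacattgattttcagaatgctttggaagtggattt
Ugt2b35: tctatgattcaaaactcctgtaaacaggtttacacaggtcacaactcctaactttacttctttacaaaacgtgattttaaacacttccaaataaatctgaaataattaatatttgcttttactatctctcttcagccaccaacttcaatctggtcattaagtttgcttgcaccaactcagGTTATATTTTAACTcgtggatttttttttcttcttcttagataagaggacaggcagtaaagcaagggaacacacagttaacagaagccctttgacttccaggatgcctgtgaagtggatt
The run begins at base -64 in Ugt2b36 and at base -70 in Ugt2b35, and 2 of 27025 windows hold it on either strand. It was found by comparing these windows after the values were seen, and both genes belong to 1 family.

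Ugt1a10 had 4579.1, 5409.65 and 6631.2 in mutants, against 2620.1, 3644.95 and 5389.6 in controls. Control 4, at 5389.6, was the control inside the mutant range, and the mean was 1.43-fold higher (log2 difference 0.52, SE 0.13, limma adjusted p = 0.0265). The call ended without mutant 1, 3, 4 or 5 or control 2, 3 or 6 (adjusted p 0.0502 to 0.0528) and with the floored values (0.0696). Genes of the Ugt1a locus share their last exons, so this row may read the locus as a whole. Ugt1a6a, of the same locus, read 131.6 ± 10.7 in mutants and 115.5 ± 24.9 in controls (SD, n = 6 each, limma adjusted p = 0.425), and is likewise named after its values were seen.

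Of 10 cytosolic sulfotransferase rows, 1 was called (10%, against 9.19% of all rows), and its level was within the noise. Sult5a1 had group means of 18.2 in mutants and 4.77 in controls, both under the limit (limma adjusted p = 0.0435), and leaving out any single mouse other than mutant 2 or mutant 5 removed the call (adjusted p up to 0.0923). Sult1d1, which sulfates catecholamines and other amines, had 881.1, 1094.4 and 1818.4 in mutants, against 936.5, 1204.35 and 1499.1 in controls (limma adjusted p = 0.898). Sult1a1, a phenol sulfotransferase, read 526.0 ± 157.7 in mutants and 390.5 ± 67.1 in controls (limma adjusted p = 0.205), and Sult2b1, which sulfates cholesterol, read 321.7 ± 75.3 and 262.5 ± 27.8 (SD, n = 6 each, limma adjusted p = 0.285). Sult1c2 was under the limit in every control and above it in 4 mutants (limma adjusted p = 0.0973), and it passed without mutant 4 (0.0164) and with array weights (0.049). Both Sult5a1 and Sult1c2 are named after their values were seen.

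Aldehyde dehydrogenases oxidise aldehydes from alcohol, lipids, retinoids and amino acids. Of 19 rows 2 were higher in mutants (10.5%, against 4.71% of all rows) and 1 was lower (5.26%, against 4.48%). Both higher rows are formyltetrahydrofolate dehydrogenases, which release carbon units from folate. Aldh1l1, the cytosolic form, had a lowest intensity of 133.9, a median of 274.75 and a highest of 313.9 in mutants, against 59.4, 77.5 and 104.5 in controls. The groups did not overlap, mutants 2 and 4 were the lowest mutants, and the mean was 3.07-fold higher (log2 difference 1.03, SE 0.15, limma adjusted p = 0.00067). Aldh1l2, the mitochondrial form, had 38.3, 51.7 and 80.1 in mutants, against 20.6, 25.7 and 49.5 in controls. Control 4, at 49.5, lay within the mutant range, and 4 of the 6 controls were under the noise limit, so no fold is given (log2 difference 0.34, SE 0.08, limma adjusted p = 0.022). The call ended without mutant 3 (0.053), with the floored values (0.0521) and with the replicate number as a block (0.0536). Aldh6a1, which degrades valine and pyrimidine products in mitochondria, had 234.7, 339.5 and 456.8 in mutants, against 413.6, 492.25 and 686.2 in controls. Mutant 1 reached into the control range, the mean was 1.49-fold lower (log2 difference -0.49, SE 0.13, limma adjusted p = 0.0253), and the call ended without mutant 5 or 6 or control 3 or 6 (adjusted p 0.0515 to 0.0554) and with the floored values (0.0765).

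The aldehyde dehydrogenase rows with a high signal did not pass. Aldh2, which clears acetaldehyde, read 8895 ± 616 in mutants and 8322 ± 847 in controls (SD, n = 6 each, limma adjusted p = 0.482). Aldh3a2, the fatty aldehyde dehydrogenase, read 5321 ± 788 in mutants and 5735 ± 735 in controls (limma adjusted p = 0.548). Aldh18a1, which makes the precursor of proline and ornithine, had 5528.6, 6558.95 and 7430.7 in mutants, against 6741.8, 7745.05 and 9310.8 in controls (log2 difference -0.27, SE 0.09, limma adjusted p = 0.0832), and passed without control 4 and mutant 1 (0.0342). None of the 4 Aldh1a rows was called. Aldh1a3, a retinaldehyde dehydrogenase named after its values were seen, read 238.8 ± 70.9 in mutants and 332.1 ± 63.8 in controls (SD, n = 6 each, limma adjusted p = 0.113), and it passed without mutant 2 (0.0331) and with the replicate number as a block (0.016).

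Alcohol dehydrogenases were not called either, in any of 4 rows. Adh1, which oxidises ethanol and retinol, had 1555.1, 2105.05 and 4564.5 in mutants, against 757.0, 1450.55 and 2926.9 in controls, with mutant 4 highest and control 1 lowest (log2 difference 0.54, SE 0.30, limma adjusted p = 0.339). Adh4, a retinol dehydrogenase, had 18.8, 60.2 and 326.8 in mutants, against 15.3, 44.55 and 78.4 in controls (limma adjusted p = 0.489), and mutants 2 and 4 were above every other mouse. Adh5, the formaldehyde-clearing form, read 293.6 ± 45.3 in mutants and 248.8 ± 33.4 in controls (SD, n = 6 each, limma adjusted p = 0.27).

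Several members varied more within the mutants than between the groups, and the same mice stood out in many of them. Of the 45 members above the limit in all mice, 14 (31.1%) had their highest value in mutant 4 and 9 (20%) in mutant 2. Over the 8777 rows of the table above the limit in all mice, these shares were 9.78% for mutant 4 and 5.5% for mutant 2. The lowest value was in mutant 3 for 11 members and in control 1 for 11, and the matching shares over all rows were not counted. Over the 8777 rows, mutant 3 held the highest value in 14.1% and control 1 in 17.6%. Cyp2c70, a P450 that acts on bile acids in mice, read 750.4 in mutant 2 and 803.4 in mutant 4. Its other 4 mutants were at 30.2 to 327.1 and the controls at 165.8 to 638.5 in controls. Aldh1a1 read 1103.9 in mutant 2 and 1148.7 in mutant 4, while its remaining mutants were at 377.6 to 544.5 and the controls at 372.5 to 777.9 in controls. Aldh1a7, its close relative, read 692.3 in mutant 4 and was lowest in mutant 3. These 3 genes were chosen after their values were seen. Mutants 4 and 2 also had the lowest mutant sums of the 6 Paneth cell rows, 10300.4 and 20654, with the remaining mutants at 35578 to 47697, and of the 5 neutrophil rows, 393.6 and 460.9, with the remaining mutants at 719.1 to 1166. By Xist and Y-linked rows, mutant 4 was female and mutant 2 male. Mutant 5, the other female mutant, held the highest value of 2 of the 45 members (4.44%). The part of these cell types and of sex in the pattern was not tested.

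**Figure D4:**
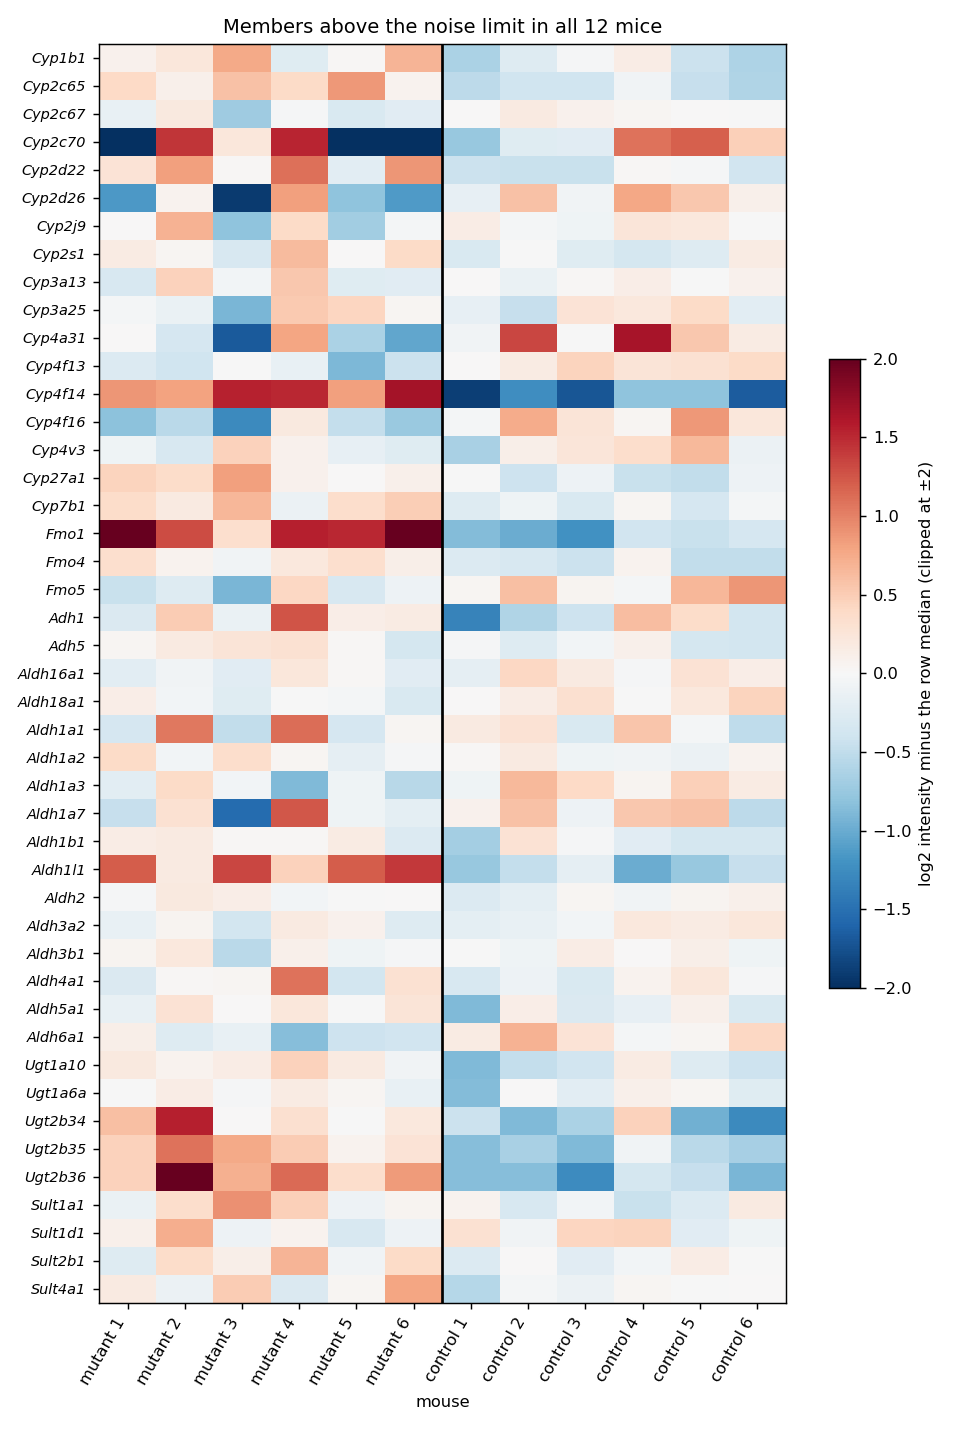
Colour gives the log2 intensity minus the row median, clipped at 2 on either side, for the 45 members above the noise limit in all 12 mice, mutants left of the line and controls right of it. Cyp4f14, Fmo1 and Aldh1l1 separate the groups, while Cyp2c70, Cyp2d26 and Adh1 are higher in mutants 2 and 4 than in the other 4 mutants.

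Other genes of the same pathways were taken from a list of 126 symbols, of which 116 had a row. In mutants 16 were higher and 3 lower (16.4% called, against 9.19% of all rows), and the lower count was 6 without mutant 2 and 7 without mutant 4. Among the receptors that regulate these enzymes and their partner proteins, 1 of 21 rows was called (4.76%, against 9.19% of all rows). It was Vdr, the vitamin D receptor, with 464.2, 510.65 and 685.3 in mutants, against 245.6, 284.35 and 306.7 in controls, no overlap and a mean 1.92-fold higher (log2 difference 0.79, SE 0.08, limma adjusted p = 5.9e-05). The xenobiotic receptors Nr1i2 (the pregnane X receptor) and Nr1i3 (the constitutive androstane receptor) did not pass, at 756.0 ± 172.8 and 395.2 ± 71.0 in mutants and 917.2 ± 115.8 and 424.8 ± 77.9 in controls (limma adjusted p = 0.191 and 0.746). The aryl hydrocarbon receptor row, Ahr, was at background in all mice. Por, which passes electrons to microsomal P450 enzymes, read 472.1 ± 127.5 in mutants and 606.6 ± 94.7 in controls (SD, n = 6 each, limma adjusted p = 0.16).

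Phase II partners were called in 8 of 35 rows (22.9%), all higher in mutants. Over all rows of the series, 9.19% were called and 4.71% were called higher. Papss2, which makes the sulfate donor of the sulfotransferases, had 278.0, 409.0 and 606.3 in mutants, against 128.9, 174.05 and 223.0 in controls, with no overlap and a mean 2.40-fold higher (limma adjusted p = 0.00116). Of 21 glutathione transferase rows 6 were called, all higher, and 15 were not. The called rows with no overlap between the groups were Gstp1, 1.73-fold higher (0.00039), Gstk1, 1.71-fold higher (0.000615), and Mgst2, 2.09-fold higher (0.0055) (limma adjusted p in brackets). Ugdh, which makes the sugar donor of the glucuronosyltransferases, was at background in all mice. Among other phase I enzymes, the aldo-keto reductase Akr1b8 had 157.4, 180.15 and 197.3 in mutants, against 39.6, 57.05 and 78.9 in controls, a mean 3.03-fold higher (limma adjusted p = 3.69e-06). The quinone reductase Nqo2 was 1.29-fold higher (limma adjusted p = 0.00611), and the lactonases Pon3 and Pon2 were 1.99-fold and 1.29-fold lower (limma adjusted p = 0.00102 and 0.00774). Abcb1b, a drug efflux pump, was called higher (limma adjusted p = 0.00178) with all controls under the noise limit and mutants at 18.4 to 43.4 around it. In retinoid handling, 1 of 20 rows was higher and 1 lower (10% called, near the share of all rows, 9.19%). Lrat, which esterifies retinol for storage, had 143.7, 181.5 and 410.3 in mutants, against 287.7, 458.25 and 633.0 in controls, and was 2.13-fold lower (limma adjusted p = 0.00816). Rdh11, a retinal reductase, was 1.48-fold higher (limma adjusted p = 0.00286), and Rbp2, the retinol carrier of enterocytes, read 11625 ± 2124 in mutants and 13853 ± 1363 in controls (SD, n = 6 each, limma adjusted p = 0.149).

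For the series as a whole, the targeted gene Ptpn11 read 1498 ± 118 in mutants and 1288 ± 124 in controls (SD, n = 6 each, limma adjusted p = 0.0763), and since the position of its probe is not given, the labels could not be checked with it. Of 6 intestinal epithelium markers with a row, 5 were above the limit in every mouse, Vil1 among them. The remaining row, Fabp2, was at background in all mice, at -16.3 to -8.2 in mutants and -21.5 to -7.2 in controls. Cdx1 was called higher (limma adjusted p = 0.02), the others were not, and the summed intensity, most of it from Apoa4, was 50583 to 56152 in mutants and 50818 to 56447 in controls. Paneth cell markers were higher in mutants in 6 of 6 rows, neutrophil markers in 3 of 5, and erythroid markers were lower in 3 of 5. The summed Paneth rows were at 10300.4 to 47697 in mutants and 233.9 to 1076 in controls. Their part in the member results was not tested. Of 13 hepatocyte markers 8 were under the limit in all mice, albumin included, 1 (Hp) was called higher and 1 lower. Pancreatic acinar rows were highest in mutant 1 (sum 54743) and control 4 (93611), against 2387 to 14241 in the other mice. Mutant 2 and control 5 also carried acinar transcripts, at lower levels. Try4, named after its values were seen, read 3409.6 in mutant 1 and 5364.8 in control 4. It read 269.2 in mutant 2, 474.7 in control 5 and at most 2.2 in the remaining mice. Clps did not single out mutant 2 (2658.3, against 4766.1 in mutant 3). Without mutant 1 and control 4, 15 of the 18 member calls were kept, the others being Cyp2d10, Cyp27a1 and Sult5a1. That fit still held mutant 2 and control 5. By Xist and Y-linked rows, 2 of 6 mutants and 2 of 6 controls were female.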

How the data were processed

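Total RNA of a whole piece of proximal small intestine was labelled with biotin and read on a 1-colour Illumina array, per the labels' protocols. The authors deposited 1 intensity per gene symbol and mouse, on a linear scale, already background-subtracted (22.5% of values were below 0) and with nearly the same distribution in all 12 mice. GenomeStudio and Partek are named in the submitters' processing notes, with no role. Array version and probe summary are not given in the sources used here. The 24 value columns of the other table match no sample label and were left out.

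The deposited intensities were passed through normexp (offset 50), then quantile normalization and a log2 transform (limma 3.58.1, R 4.3.3). Group was the only term of the model, all 18090 rows were kept, and p-values were two-sided and adjusted over all rows. This follows the written design. The offset shrinks log2 differences of dim rows, so folds are ratios of the deposited means, given where both means were above the noise limit, except for Aldh1l2. The highest means by which members were named are array signals, not a ranking of expression. The number of mice limits the precision. The labels call the samples biological replicates. Alternatives were another offset, a floor, no quantile step, a filter on dim rows, other variance models, sex, the replicate number and leaving out mice. The fit was tested on simulated data.

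Named members were those called with a mean above the limit, and up to 3 members of each family with the highest mean, and of the partner genes 6 set receptors and enzymes and up to 12 with the smallest adjusted p. Cluster neighbours are named for position, and other genes are said to be chosen after their values were seen. The members and lists were chosen with earlier results of these data known. All 129 members matched the RefSeq gene table (GRCm38.p6) by symbol, and 101 had a promoter window. Motifs were searched as exact letters on both strands.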

Additional observations from a re-analysis of the deposited data

Results flagged for a closer look

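In 11 of 96 groups of 6 mice, 1 mouse stood apart from the other 5. The gap to its nearest neighbour, as a ratio to the whole range on the linear scale, exceeded Dixon's critical value. About 1 in 20 would do so among independent groups of normally distributed values. These groups share the same 12 mice and linear intensities need not be normal, so 11 of 96 cannot be read as an excess over chance. Control 4, which carried pancreatic acinar transcripts, was the high mouse for 4 members: Cyp2c65 (847.9 against 675.7 for the next control, ratio 0.655), Fmo4 (411.4 against 322.3, 0.663), Ugt2b35 (147.3 against 106.6, 0.647) and Aldh1l2 (49.5 against 29.6, 0.689). Mutant 2, which carried acinar transcripts at a lower level, was the high mouse for Ugt2b36 (742.1 against 405.8, 0.666), Sult1d1 (1818.4 against 1178.6, 0.683) and the receptor Nr1i2 (1098.4 against 749.6, 0.765). Mutant 4 was high for Cyp3a11 (131.4 against 29.8, 0.751) and for Nqo2 (832.4 against 701.4, 0.64). Mutant 1 was high for Lrat (410.3 against 218.6, 0.719), and control 1 for Gstk1 (1446.0 against 1047.9, 0.721). The Fmo4, Ugt2b35, Ugt2b36 and Cyp2c65 calls were kept in each fit that left out 1 mouse.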

How the results depend on the processing

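Across up to 22 alternative settings a row, 10 of the 18 member calls were kept in all: Cyp4f14, Fmo1, Ugt2b36, Ugt2b35, Aldh1l1, Cyp2c65, Cyp7b1, Fmo4, Cyp4f13 and Cyp4f16; the other 8 were lost in some, the causes not being tested. A floor at the noise limit in place of normexp gave 532 higher and 501 lower rows of the whole table, and 8 higher and 2 lower members. With the replicate number as a block, 7 members were lower in place of 4. Same-numbered mice correlated at -0.11 to 0.266 in their deviations from the group means. Mutants 3 and 6 correlated best with the control of the same number (0.265 and 0.266), the others with another control. Such correlations cannot settle whether the numbers pair mice. Leaving out 1 mouse gave 655 to 875 higher and 592 to 844 lower rows, 10 to 15 higher and 2 to 7 lower members, and 14 to 19 higher and 3 to 7 lower partner genes. Directions turned only for uncalled rows with differences near 0. With array weights Cyp3a13 was at -0.0547, and without control 4 and mutant 1 Cyp3a25 was at 0.0314. Leaving out 1 mouse gave -0.10 to 0.070 for Cyp3a13, -0.11 to 0.14 for Cyp3a25, -0.18 to 0.0134 for Sult1d1 and -0.0181 to 0.13 for Cyp20a1 on the log2 scale. Rows near the noise limit carry little signal, and a fold there is not determined.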
